A study of Mus musculus with 100 samples.

Results

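The 7 genes described here encode proneural basic helix-loop-helix (bHLH) transcription factors: Neurog1, Neurog2, Neurod1, Neurod2, Neurod4, Neurod6 and Atoh1. They were taken as a list of names from the 23109 gene-level entries of the RNA tables, and all 7 were found there, each with 1 transcript. No annotated gene overlaps any of them in the RefSeq gene table of GRCm38.p6. Their read counts were followed through 37 RNA libraries in 18 groups, with neural cultures and whole embryos first.

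The study asked what the methyltransferase activities of MLL3 and MLL4, the enzymes encoded by Kmt2c and Kmt2d that methylate histone H3 on lysine 4, contribute to early mouse development. All cultured cells lacked Mll3 (Mll3-/-). The flox reference carried Mll4flox/flox and the KI cells Mll4KI/KI, and the 2 KI replicates of each stage were clones 27 and 48. KI is not spelled out in the labels. Control embryos were Mll3flox/KI;Mll4flox/+;Sox2-Cre and KI embryos Mll3flox/KI;Mll4flox/KI;Sox2-Cre, so that both carried the Mll3 KI allele and a Cre that acts in the epiblast, and they differed in the second Mll4 allele. Neural cultures were grown as aggregates, received 5 µM retinoic acid from day 4, and were plated as dissociated progenitors at day 8 for neurons at day 16. They comprised 2 flox and 2 KI libraries per day. Embryos were taken at E8.5 and E9.5, with 3 control and 3 KI libraries per stage. The remaining cultures were embryonic stem cells (ESCs) and embryoid bodies (EBs, free-floating aggregates) at days 4 and 10 with 1 flox and 2 KI libraries each, trophectoderm cells made with an inducible CDX2 transgene (day 6), and extraembryonic endoderm cells made with retinoic acid and activin A (day 5), both with 2 flox and 2 KI libraries.

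Proneural factors bind E-boxes as dimers with E proteins, switch on neuronal genes and the Notch ligand Dll1, and thereby start neurogenesis in a progenitor while Notch signalling holds its neighbours back. ID proteins take E proteins away from them, and HES and HEY repressors, the targets of Notch, repress their genes. Neurog1 and Neurog2 act early in progenitors of sensory ganglia, spinal cord and forebrain, Neurod1 and Neurod4 act after them in newly born neurons, Neurod2 and Neurod6 mark maturing excitatory neurons, and Atoh1 specifies dorsal hindbrain and spinal cord neurons and sensory hair cells.

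The promoter windows of 4 of these genes are shown because the first pair moved in opposite directions in day 8 KI cultures, and because Neurod1 and Neurod2 were called in different directions in different cultures or days. Each is the RefSeq window of 250 bases before to 50 bases after the gene start (GRCm38.p6), printed 5′ to 3′ on the gene's strand, with every E-box (CANNTG, both strands) in capitals.
Neurog1, minus strand, chr13:56252131-56252430: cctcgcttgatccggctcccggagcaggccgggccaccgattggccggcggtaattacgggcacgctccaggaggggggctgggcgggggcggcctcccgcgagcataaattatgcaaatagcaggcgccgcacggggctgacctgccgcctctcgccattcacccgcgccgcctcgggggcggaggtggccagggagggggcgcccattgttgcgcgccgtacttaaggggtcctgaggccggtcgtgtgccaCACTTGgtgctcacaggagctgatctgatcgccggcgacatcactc
Neurog2, plus strand, chr3:127632886-127633185: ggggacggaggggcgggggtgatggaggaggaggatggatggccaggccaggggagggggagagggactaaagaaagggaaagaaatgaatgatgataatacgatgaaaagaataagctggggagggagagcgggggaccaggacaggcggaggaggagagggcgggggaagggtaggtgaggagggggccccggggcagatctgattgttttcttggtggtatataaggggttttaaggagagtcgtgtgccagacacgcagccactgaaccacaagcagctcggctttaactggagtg
Neurod1, minus strand, chr2:79456587-79456886: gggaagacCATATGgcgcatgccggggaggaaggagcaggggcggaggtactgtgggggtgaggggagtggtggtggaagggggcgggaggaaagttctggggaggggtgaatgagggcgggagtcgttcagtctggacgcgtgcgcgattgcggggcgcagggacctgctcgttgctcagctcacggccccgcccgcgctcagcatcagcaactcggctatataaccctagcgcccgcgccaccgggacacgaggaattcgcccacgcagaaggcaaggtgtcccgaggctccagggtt
Neurod2, minus strand, chr11:98329596-98329895: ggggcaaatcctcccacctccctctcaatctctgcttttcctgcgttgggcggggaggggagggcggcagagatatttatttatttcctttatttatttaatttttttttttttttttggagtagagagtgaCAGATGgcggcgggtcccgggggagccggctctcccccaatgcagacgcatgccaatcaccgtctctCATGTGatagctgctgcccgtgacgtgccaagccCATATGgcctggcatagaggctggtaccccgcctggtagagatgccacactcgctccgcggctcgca

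An E-box was present in 72.3% of all 32851 windows, so its presence sets none of these genes apart. Neurog1 held 1, Neurod1 held 1 and Neurod2 held 3, whereas the Neurog2 window held 0. The Neurod1 E-box has the letters CATATG, which occur in 3.91% of windows, and Neurod2 holds both CATATG and CAGATG, the latter in 17.2% of windows. Of the other members, Atoh1 and the first of the 2 windows of Neurod4 held 0, the second Neurod4 window held 1 (CAGCTG, in 16.3% of windows), and Neurod6 held 2. The N-box CACNAG, a letter pattern bound by HES proteins, occurred in 42.5% of windows and once each in the windows of Neurog2, Neurod1 and Atoh1, with 3 in Neurod6, 2 and 1 in the first and second windows of Neurod4, and 0 in Neurog1 and Neurod2. These matches describe letters in a window and say nothing of binding.

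After reduction to genes the neural libraries held 39.0 to 59.9 M reads (M, mega), with 20.1 to 26.9 in embryos, 18.9 to 25.8 in ESCs and EBs, and 19.6 to 27.6 in the extraembryonic cultures. Levels are given as CPM, a gene's reads over the gene-level total of its library on the usual counts-per-M scale, and levels of different genes are compared only as deposited RPKM, which divides by transcript length. Where no read was counted, up to 3 reads remain possible (0.0501 to 0.159 CPM depending on the library, counting error only). In the embryo, trophectoderm and extraembryonic endoderm libraries 64.4% to 69.2% of counts from 1 to 20 were even, against 41.1% to 43.4% elsewhere, so that low counts there may hold fewer fragments than their number. A gene was termed called at an adjusted p under 0.05 (edgeR quasi-likelihood test, Benjamini-Hochberg over all genes tested). Where groups are said not to overlap, the share of all genes separated in the same way is not given here. Such a separation therefore does not set a member apart from other genes. In these bulk samples fewer cells expressing a gene and less RNA per cell cannot be told apart. The labels do not say that culture replicates were grown separately, so p-values measure only the spread between these samples. The 2 flox libraries of day 8 differed by little more than sampling noise (chi-square 1.5 per degree of freedom, where other replicate pairs gave 2.76 to 54.8), so p-values at day 8 may overstate replication.

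At day 8, when the cultures are labelled neural progenitors, Neurog1 and Neurog2 were the most abundant of the 7 and responded to KI in opposite directions. Neurog1 had 107 and 109 CPM in flox and 77.3 and 61.7 CPM in KI clones 27 and 48. Neurog2 had 37.5 and 39.5 CPM in flox and 56.2 and 56.1 CPM in KI. Both KI clones lay below both flox libraries for Neurog1 and above both for Neurog2. Neurog1 fell by 0.61 on the log2 scale (SE 0.11, edgeR adjusted p = 0.0016), and Neurog2 rose by 0.58 (SE 0.09, edgeR adjusted p = 0.000824).

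The ratio of the 2 neurogenins within a library therefore moved. Neurog1 RPKM was 3.67 and 3.82 times that of Neurog2 in flox, and 1.83 and 1.46 times in KI. As a share of the summed RPKM of the 7 genes, Neurog1 made up 69.3% and 68.5% in flox against 57.9% and 52.8% in KI, while Neurog2 went from 18.2% and 18.7% to 31.7% and 36.1%. The groups did not overlap, but an exact 2-sided permutation test of 2 against 2 libraries cannot give a p below 0.333, the value it gave.

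Of the factors that act after the neurogenins, Neurod1 had 16.9 and 18.7 CPM in flox and 10.1 and 10.3 CPM in KI, and it fell by 0.78 (SE 0.14, edgeR adjusted p = 0.00145). Neurod4, which follows Neurog1 and Neurog2 in sensory and spinal neuroblasts, had 15.9 and 15.7 CPM in flox and 13.5 and 11.3 CPM in KI, a log2 difference of -0.31 (SE 0.15) that was not called (edgeR adjusted p = 0.187). Relative to Neurog2, Neurod1 RPKM stood at 0.402 and 0.42 in flox and at 0.159 and 0.162 in KI. Neurod1 was thus lower in both clones, both in CPM and relative to Neurog2.

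Neurod2, a factor of maturing neurons, was close to the detection limit at day 8. It had 3 and 4 reads in flox (0.0695 and 0.0782 CPM) and 18 and 25 reads in KI (0.413 and 0.512 CPM). It rose by 2.64 (SE 0.50, edgeR adjusted p = 0.00252) at a level far under that of the neurogenins. Atoh1 had 9 and 4 reads in flox and 11 and 14 in KI, a log2 difference of 0.98 (SE 0.52, edgeR adjusted p = 0.238). Neurod6 had 0 reads in each of the 4 libraries, which allows up to 0.0695 CPM.

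In all, 4 of the 6 members above the floor of 3 reads were called at day 8, 2 higher and 2 lower, where 19.5% of all 16439 genes tested were called. Every one of these 4 calls held under each of 13 alternatives, which included DESeq2, no TMM scaling and leaving out any neural library.

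**Figure D1:**
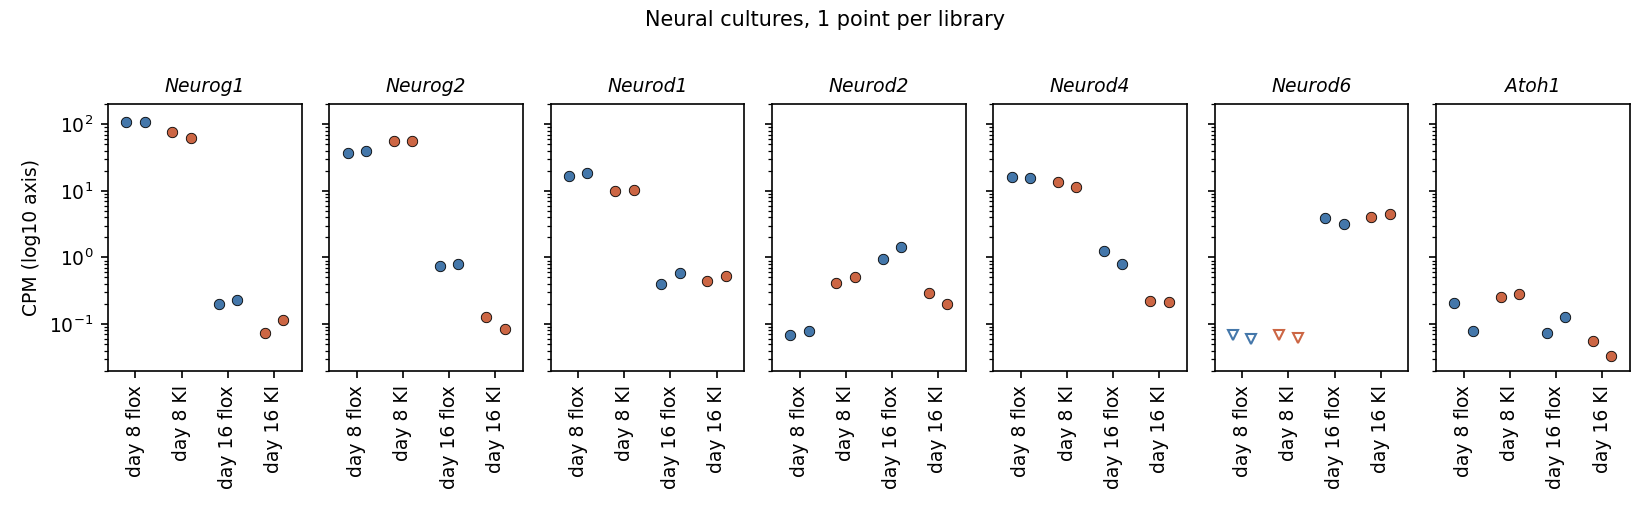
CPM of each gene (log10 axis) in the 8 neural libraries, 1 point per library, flox in blue and KI in orange; open triangles mark 0 reads and are drawn at the level of 3 reads. Neurog1 falls from 107 and 109 CPM in day 8 flox to 0.200 and 0.231 at day 16, and Neurod6 appears only at day 16, at 3.18 to 4.49 CPM.

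By day 16, when the cultures are labelled neurons, the order of the genes had turned over. In flox, Neurog1 had gone from 107 and 109 CPM to 0.200 and 0.231 CPM: it fell by 8.94 on the log2 scale (SE 0.19, edgeR adjusted p = 5.53e-12). Neurog2 fell by 5.61 (SE 0.14, edgeR adjusted p = 8.89e-12), Neurod1 fell by 5.17 (SE 0.19, edgeR adjusted p = 1.4e-10) and Neurod4 fell by 3.88 (SE 0.19, edgeR adjusted p = 1.64e-09). Neurod2 instead rose by 3.99 (SE 0.43, edgeR adjusted p = 2.92e-06), to 0.963 and 1.46 CPM. Neurod6 reached 3.96 and 3.18 CPM, at least 55.7-fold above a floor of 3 reads per day 8 library.

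Thus 6 of 7 members were called between days in flox, 4 lower and 2 higher, at a background of 77.1% of all genes. Atoh1, with 9 and 4 reads at day 8 and 4 and 5 at day 16, was not called (edgeR adjusted p = 0.502). In RPKM the day 16 flox order put Neurod6 first (1.34 and 1.11), and Neurod2 (0.224 and 0.351), Neurog2 (0.245 and 0.270) and Neurod4 (0.273 and 0.179) followed without a separation beyond their spread. Neurod1 (0.117 and 0.178) lay just under them, and Neurog1 and Atoh1 lay at 0.104 RPKM or less.

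In KI, 6 of 7 members were likewise called between days, 5 lower and 1 higher, at a background of 79.9%. Neurog2 fell by 8.82 (SE 0.17, edgeR adjusted p = 1.37e-12), from 56.2 and 56.1 CPM to 0.130 and 0.0835 CPM. Neurod4 fell by 5.60 (SE 0.23), Neurog1 fell by 9.25 (SE 0.21), Neurod1 fell by 4.19 (SE 0.19) and Atoh1 fell by 2.36 (SE 0.63, edgeR adjusted p = 0.00427). Neurod6 reached 4.07 and 4.49 CPM, at least 65.7-fold above the day 8 floor. Neurod2, which rose over time in flox, went from 0.413 and 0.512 CPM to 0.296 and 0.200 CPM in KI, a log2 difference of -0.71 (SE 0.38) that was not called (edgeR adjusted p = 0.106), although it was called without TMM scaling (-0.91, edgeR adjusted p = 0.0432).

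Set against flox at day 16, KI cultures had less of 3 members. Neurog2 stood at 0.745 and 0.794 CPM in flox and at 0.130 and 0.0835 CPM in KI, which is 41 and 31 reads against 7 and 5. It fell by 2.63 (SE 0.29, edgeR adjusted p = 1.9e-05). Neurod4 had 1.25 and 0.794 CPM in flox and 0.222 and 0.217 CPM in KI, and it fell by 2.04 (SE 0.30, edgeR adjusted p = 0.000178). For Neurod2, 0.963 and 1.46 CPM in flox stood against 0.296 and 0.200 CPM in KI, and it fell by 2.06 (SE 0.33, edgeR adjusted p = 0.000359). For all 3 genes the highest KI library lay under the lowest flox library.

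The other 4 members were not called at day 16. Neurod6, the most abundant of the 7 at this day, had 3.96 and 3.18 CPM in flox and 4.07 and 4.49 CPM in KI (log2 difference 0.46, SE 0.19, edgeR adjusted p = 0.067). Neurod1 had 0.400 and 0.590 CPM in flox and 0.444 and 0.518 CPM in KI, with overlapping groups (0.21, SE 0.27, edgeR adjusted p = 0.555). Neurog1 (11 and 9 reads against 4 and 7) and Atoh1 (4 and 5 against 3 and 2) had at most 11 reads in every library (edgeR adjusted p = 0.133 and 0.376). As a share of summed RPKM, Neurod6 made up 58.0% and 49.6% in flox and 80.2% and 81.9% in KI, while the sum itself was 2.31 and 2.24 RPKM in flox and 1.65 and 1.84 RPKM in KI.

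With 3 of 7 members called, all lower, against 46.9% of all genes, the count at day 16 did not stand above the background. All 3 calls held under each of 13 alternatives. With TMM factors 57.9% of called genes were higher in KI, and without them 30.1%.

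**Figure D2:**
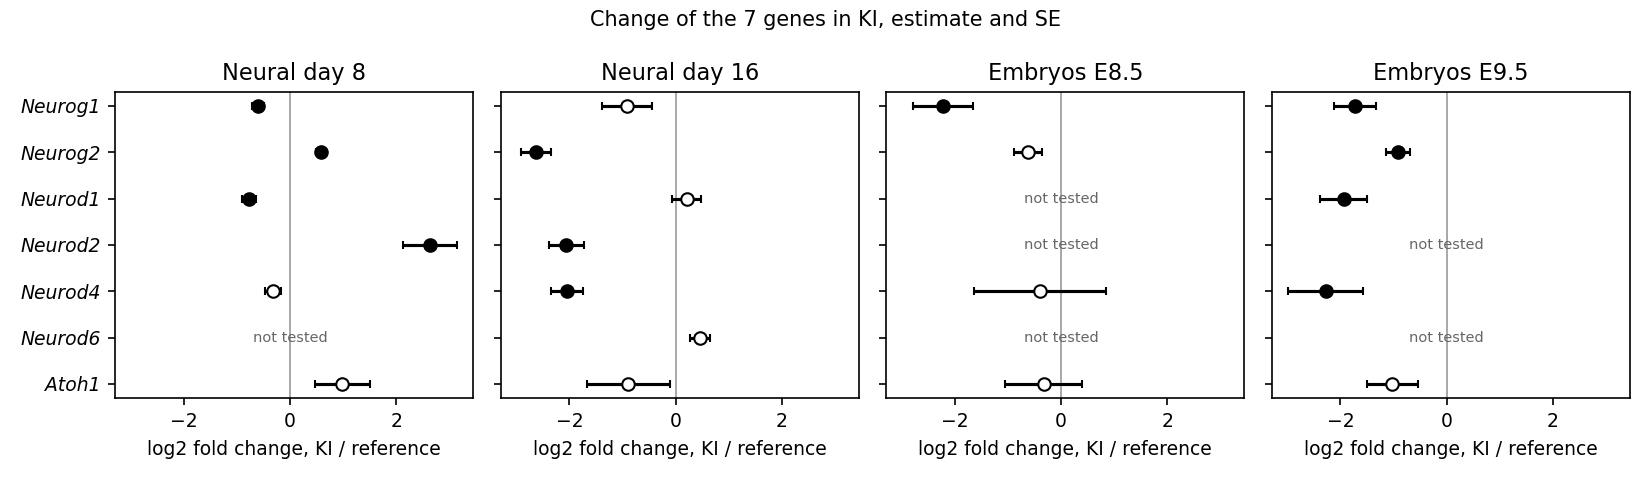
Log2 fold change of each gene in KI relative to flox (neural) or control (embryos), with 1 SE; filled points have an edgeR adjusted p under 0.05, and "not tested" marks genes removed by the low-count filter or with a mean of 3 reads or fewer in both groups. Neurog2 stands at 0.58 at neural day 8, -2.63 at neural day 16 and -0.91 at E9.5.

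**Figure D3:**
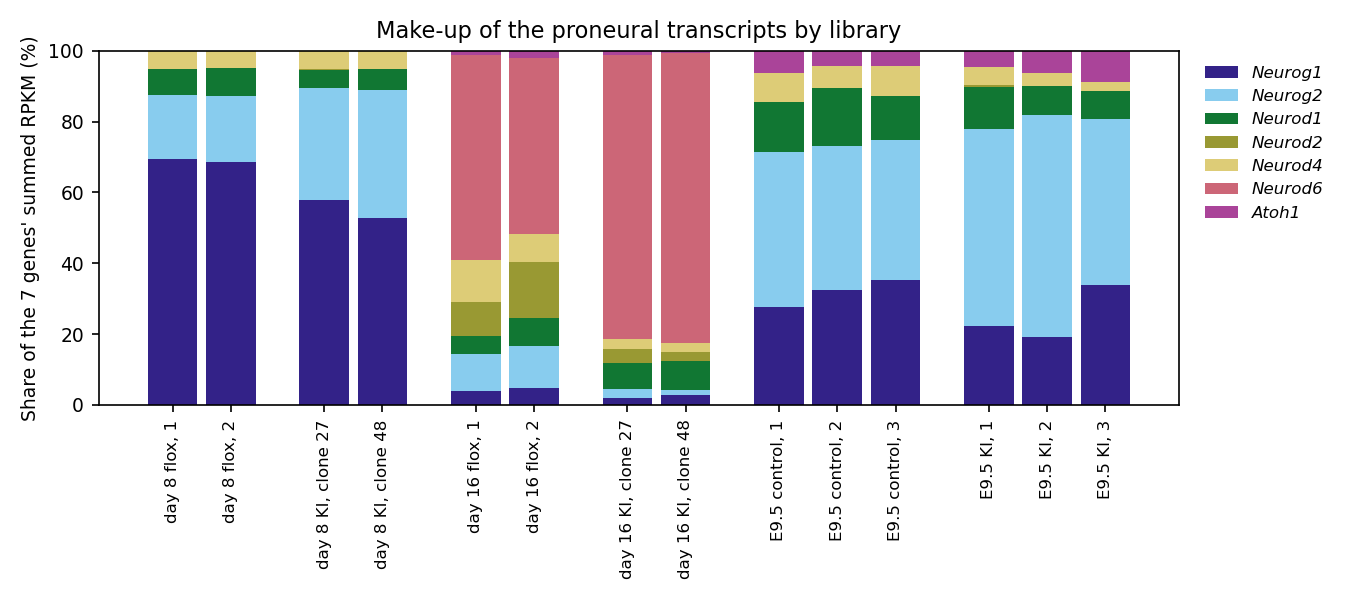
Share of each gene in the summed RPKM of the 7 (stacked bars, percent), 1 bar per library of neural day 8, neural day 16 and E9.5 embryos. The Neurog1 share is 68.5% to 69.3% in day 8 flox and 52.8% to 57.9% in day 8 KI, and Neurod6 takes 49.6% to 81.9% at day 16.

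The KI effect itself differed between the 2 neural days for 4 of 6 members tested, at a background of 33.2% of all genes. The difference (day 16 effect minus day 8 effect) was -3.21 for Neurog2 (SE 0.30, edgeR adjusted p = 1.45e-05), -4.70 for Neurod2 (SE 0.60, edgeR adjusted p = 0.000122) and -1.73 for Neurod4 (SE 0.34, edgeR adjusted p = 0.00221). Neurog2 and Neurod2 had thus moved from higher to lower in KI. For Neurod1 it was 0.98 (SE 0.30, edgeR adjusted p = 0.025), and that call was lost without TMM scaling (adjusted p = 0.0555) and without any of 5 of the 8 neural libraries (adjusted p up to 0.124). For Neurog1 it was -0.31 (SE 0.47, edgeR adjusted p = 0.681) and for Atoh1 -1.88 (SE 0.94, edgeR adjusted p = 0.15). Among all genes called for this difference, 57.8% were positive with TMM factors and 37.6% without.

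The dimer partners, inhibitors, repressors and targets of these factors moved as follows in day 8 KI cultures, where the median log2 difference of all genes tested was 0.005. Of the 3 E proteins (Tcf3, Tcf4, Tcf12) 0 were called by edgeR (1 had an unadjusted p under 0.05) and 0 by DESeq2, their log2 differences running from -0.28 for Tcf12 to 0.18 for Tcf3. Of the 4 ID genes 2 fell, with a list median of -0.49: Id1, from 44.9 ± 1.5 to 21.7 ± 1.7 CPM (SD, n = 2 each, as below; -1.01, edgeR adjusted p = 0.000535), and Id4, from 13.5 ± 0.4 to 8.84 ± 0.81 CPM (-0.58, edgeR adjusted p = 0.00462). Of the 7 HES and HEY genes 2 rose and 3 fell (median -0.66). Hes1 rose from 64.8 ± 1.3 to 137 ± 7.9 CPM (1.11, edgeR adjusted p = 2.4e-05) and Hes3 rose by 1.63, while Hes5 fell from 108 ± 1.2 to 40.7 ± 4.7 CPM (-1.38, edgeR adjusted p = 1.01e-05) and Heyl fell by 1.62.

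Of 19 genes listed as proneural targets, 3 of which are also neuron markers (Dcx, Elavl3 and Elavl4), 2 rose and 6 fell at day 8 (median -0.21). Btg2, an antiproliferative gene of progenitors about to divide into neurons, rose from 58.8 ± 0.7 to 94.8 ± 1.4 CPM (0.72, edgeR adjusted p = 8.08e-05), and Insm1, a zinc finger gene of nascent neurons, rose by 0.55. The RNA-binding protein gene Elavl4 fell from 75.1 ± 1.0 to 35.9 ± 1.0 CPM (-1.03, edgeR adjusted p = 6.63e-05) and the Notch ligand gene Dll4 fell by 0.81. Dll1, the ligand gene under direct proneural control, had a log2 difference of -0.26 that was not called (edgeR adjusted p = 0.0834).

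Of 12 other neural bHLH genes, 11 were tested, 4 rose and 3 fell (median 0.30). Olig2, which specifies motor neuron and oligodendrocyte progenitors, rose from 0.911 ± 0.010 to 3.91 ± 0.32 CPM (2.13, edgeR adjusted p = 6.4e-06), and Ferd3l rose from 0.012 ± 0.016 to 0.341 ± 0.135 CPM (4.71, edgeR adjusted p = 0.00233). Bhlhe23 fell from 25.5 ± 0.7 to 5.69 ± 0.06 CPM (-2.13, edgeR adjusted p = 1.21e-06) and Nhlh2, a gene of postmitotic neurons, fell from 137 ± 2.6 to 75.4 ± 9.5 CPM (-0.83, edgeR adjusted p = 0.000181).

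Markers of other cells moved with these values at day 8. The 10 neuron markers summed to 1663 to 1686 CPM in flox and 1057 to 1231 CPM in KI, and 8 of 10 fell. The 8 progenitor markers summed to 2499 to 2526 CPM in flox and 2675 to 2806 CPM in KI, with 3 higher and 2 lower. Extraembryonic endoderm markers, of which Afp was at or under 3 reads in both groups, summed to 100.5 to 102 CPM in flox and 22.1 to 27.3 CPM in KI, and 6 of the 6 tested fell. Cortex markers summed to 22.9 to 23.5 CPM in flox and 9.97 to 10.7 CPM in KI (2 of 5 lower), blood markers to 8.95 to 9.30 and 0.643 to 0.757 CPM (2 of the 3 tested lower) and heart markers to 2.81 to 3.03 and 1.27 to 1.45 CPM (2 of 5 lower, 1 by DESeq2). The 4 Atoh1-lineage markers summed to 7.09 to 7.49 CPM in flox and 9.52 to 12.6 CPM in KI, and 2 of them rose (1 by DESeq2). Lhx2 made up most of the sum, at 6.64 ± 0.37 CPM in flox and 10.1 ± 2.1 CPM in KI. Barhl2 rose from 0.085 ± 0.010 to 0.399 ± 0.044 CPM, and Lhx9 was at or under 3 reads in KI. The part of these cell types in the changes of the 7 genes was not tested.

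At day 16 all 3 E proteins fell in KI: Tcf3 from 97.5 ± 10.1 to 45.9 ± 1.3 CPM (-0.88, edgeR adjusted p = 3.84e-05), Tcf12 fell by 0.77, and Tcf4 fell by 0.50 (edgeR adjusted p = 0.00135). Of the 4 ID genes 3 fell and 1 rose (median -1.72, all genes 0.086). Id3 fell from 76.3 ± 17.1 to 7.01 ± 2.12 CPM (-3.25, edgeR adjusted p = 1e-05) and Id1 fell by 2.91, whereas Id4 rose from 113 ± 0.2 to 149 ± 21.5 CPM (0.61, edgeR adjusted p = 0.000753). Of 7 HES and HEY genes 3 fell (2 by DESeq2). Hes1 fell from 29.7 ± 0.1 to 11.02 ± 2.40 CPM (-1.23, edgeR adjusted p = 8.67e-06) and Hes3 fell by 1.83, from 0.217 ± 0.053 to 0.054 ± 0.029 CPM. All 3 partners and 3 of 4 inhibitors of the proneural factors were thus lower at this day, when 46.9% of all genes tested were called and 3245 of 16439 were called lower.

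Of the 19 proneural targets 6 rose and 8 fell at day 16 (median -0.11). Without TMM scaling, which shifts the median of all genes from 0.086 to -0.116, 3 rose and 10 fell. Dcx, a microtubule protein gene of migrating neurons, rose from 691 ± 156 to 1046 ± 11.8 CPM (0.80, edgeR adjusted p = 0.00099) and St18 rose by 0.91, while Gadd45g fell from 28.2 ± 5.1 to 9.02 ± 1.61 CPM (-1.44, edgeR adjusted p = 7.82e-06) and Btg2 fell by 1.102. Among the other neural bHLH genes, 11 tested, 3 rose and 3 fell (2 and 3 by DESeq2, 2 and 4 without TMM scaling). Nhlh1 fell from 2.98 ± 0.12 to 0.200 ± 0.048 CPM (-3.67, edgeR adjusted p = 1.63e-07).

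The 10 neuron markers summed to 4409 to 4800 CPM in day 16 flox and to 6777 to 7240 CPM in KI, and 10 of 10 rose (7 of 10 without TMM scaling). Progenitor markers summed to 882 to 887 CPM in flox and 713 to 818 CPM in KI, with 1 higher and 3 lower (0 and 4 without TMM scaling). Astrocyte markers summed to 271 to 276 CPM in flox and 150.0 to 160.3 CPM in KI, with 1 of 4 tested higher and 3 lower (0 and 3 without TMM scaling). Gfap stood at 21.9 ± 2.9 and 1.58 ± 0.03 CPM, whereas Aldh1l1 rose from 79.9 ± 5.9 to 88.8 ± 7.6 CPM (0.36, edgeR adjusted p = 0.0124). Markers of neural crest and placode ganglia summed to 53.1 to 64.3 CPM in flox and 114 to 130.3 CPM in KI, with 3 of 6 higher and 1 lower, and Pou4f1 made up most of the sum. Cortex markers summed to 17 to 17.6 CPM in flox and 4.03 to 5.15 CPM in KI, with 1 of 5 higher and 2 lower (0 and 1 by DESeq2). Extraembryonic endoderm markers summed to 54.2 to 58.0 CPM in flox and 5.65 to 11.3 CPM in KI, and 2 of the 6 tested fell. Trophoblast markers summed to 10.3 to 11.9 CPM in flox and 3.17 to 3.74 CPM in KI, and 2 of the 4 tested fell. The part of these cell types in the members' changes was not tested.

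In embryos the 5 members that could be followed, Neurog1, Neurog2, Neurod1, Neurod4 and Atoh1, were near their onset at E8.5 and well expressed at E9.5. Neurod2 and Neurod6 did not exceed 4 reads in any of the 12 embryo libraries and did not enter the fit. Control embryos rose from 0.558 to 3.57 CPM of Neurog1 at E8.5 to 15.8 to 19.8 CPM at E9.5, and from 5.23 to 7.48 to 26.4 to 33.0 CPM of Neurog2. All 5 rose between stages in control embryos (edgeR adjusted p from 5.91e-06 for Neurod1 to 0.00234 for Neurod4; background 24.2% of genes) and all 5 in KI embryos (edgeR adjusted p from 5.69e-05 for Neurog2 to 0.0292 for Neurod4; background 32.5%). In control embryos the log2 rise ran from 2.19 for Neurog2 (SE 0.24) to 6.94 for Neurod1 (SE 0.67), the last from 2, 0 and 4 reads at E8.5 (6.25 to 7.90 under 17 alternatives). In KI embryos it ran from 1.90 for Neurog2 (SE 0.25) to 4.99 for Neurod1 (SE 0.71). The size of the Neurod1 rise in KI rests on 1 embryo, since the E8.5 KI embryos had 0, 6 and 0 reads. Without KI replicate 2 at E8.5, which leaves 0 reads in that group, the fitted value was 9.17, which is no measure of size; the lowest value under the 17 alternatives was 4.40. In KI embryos the Neurod4 call was lost under DESeq2 (adjusted p = 0.0676), without the filter (0.0559) and without 4 of the 12 embryos (up to 0.0808). Among all genes called between stages, 50.2% were higher at E9.5 in controls and 49.0% in KI with TMM factors, and 64.8% and 62.5% without.

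At E8.5 1 of the 4 members tested was called in KI, at a background of 5.46% of 15436 genes. Neurog1 had 1.49, 0.558 and 3.57 CPM in the control embryos and 0.354, 0.273 and 0.534 CPM in the KI embryos. The lowest control lay just above the highest KI embryo, and the control values were the more spread. Neurog1 fell by 2.23 (SE 0.57, edgeR adjusted p = 0.0397). Without control replicate 3, the highest of the 6, the difference was -1.34 (edgeR adjusted p = 0.0994).

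The E8.5 call was also lost without the low-count filter (edgeR adjusted p = 0.0727), in a fit of the 2 groups alone (0.0565), and without any one of control replicates 1 and 3 or the 3 KI embryos (0.0882 to 0.139), or any of 5 of the E9.5 embryos in the shared fit (0.0514 to 0.0627). The number before the hyphen in the embryo titles pairs the E8.5 samples. With that number as a block Neurog1 fell by 2.16 (edgeR adjusted p = 0.000501), and 1304 rather than 843 of all genes were called. Neurog2, the most abundant member at this stage, had 5.23, 6.59 and 7.48 CPM in controls and 5.57, 4.00 and 2.94 CPM in KI, with overlapping groups (-0.62, SE 0.25, edgeR adjusted p = 0.183). Neurod4 (0, 4 and 12 reads against 0, 0 and 12) and Atoh1 (2, 8 and 8 against 0, 4 and 10) overlapped between groups and were not called (edgeR adjusted p = 0.908 and 0.862).

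At E9.5 4 of the 5 members tested fell in KI embryos, against 29.5% of all genes called. Neurog1 had 15.8, 19.8 and 17.8 CPM in controls and 5.38, 4.68 and 6.01 CPM in KI, and it fell by 1.73 (SE 0.39, edgeR adjusted p = 0.00551). Neurog2 had 33.0, 32.9 and 26.4 CPM in controls and 17.8, 20.3 and 11.004 CPM in KI, and it fell by 0.91 (SE 0.22, edgeR adjusted p = 0.00675). Neurod1 had 12.0, 15.0 and 9.40 CPM in controls and 4.31, 3.05 and 2.08 CPM in KI, and it fell by 1.94 (SE 0.44, edgeR adjusted p = 0.00437). In each of these genes all 3 KI embryos lay below all 3 controls.

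Neurod4 had 9.37, 7.64 and 8.59 CPM in controls and 2.48, 1.80 and 0.972 CPM in KI, again without overlap, and it fell by 2.28 (SE 0.71, edgeR adjusted p = 0.0348). That call was lost under DESeq2 (adjusted p = 0.201), without the low-count filter (0.0623) and without any one of the 6 E9.5 embryos (0.0541 to 0.11). Atoh1 had 4.49, 3.38 and 2.77 CPM in controls and 1.41, 1.89 and 1.94 CPM in KI. Its groups did not overlap, but the log2 difference of -1.03 (SE 0.48) was not called (edgeR adjusted p = 0.114). It was called in a fit of the E9.5 embryos alone (adjusted p = 0.0197).

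**Figure D4:**
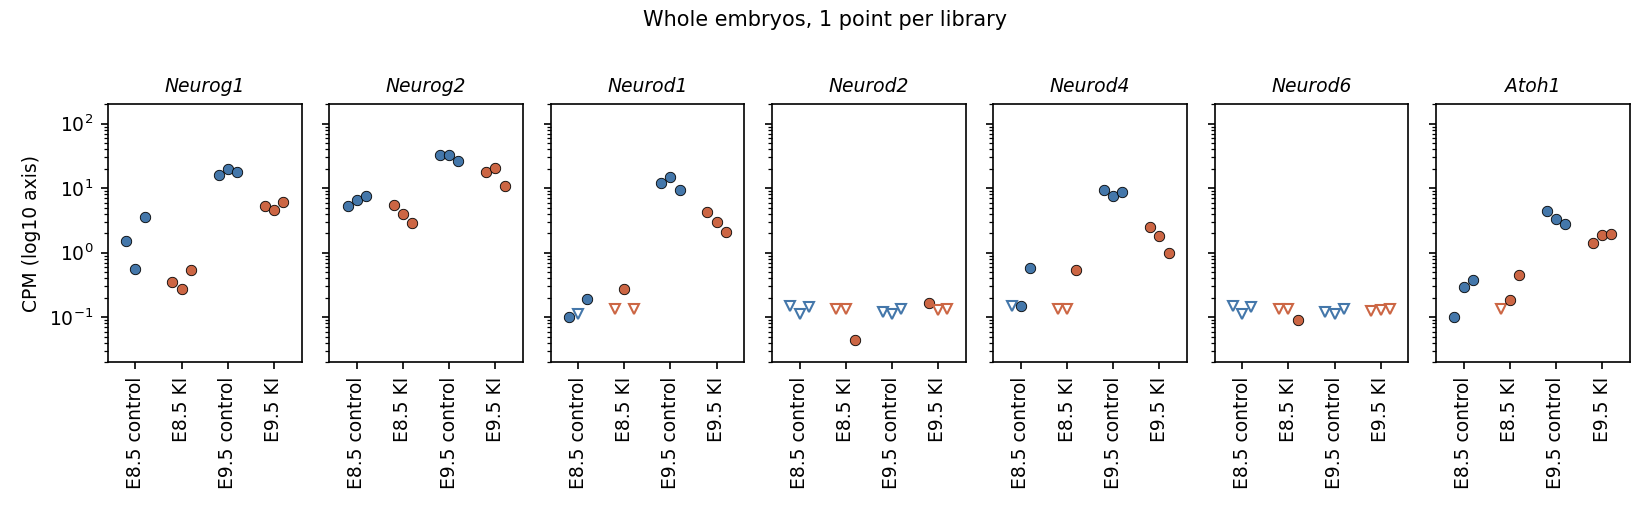
CPM of each gene (log10 axis) in the 12 embryo libraries, 1 point per library, control in blue and KI in orange; open triangles mark 0 reads and are drawn at the level of 3 reads. At E9.5 all 3 KI embryos lie below all 3 controls for Neurog1, Neurog2, Neurod1, Neurod4 and Atoh1, while Neurod2 and Neurod6 stay at 0 to 4 reads.

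No member's KI effect was called different between E8.5 and E9.5 (edgeR, 0 of 4 tested, adjusted p from 0.524 to 0.737, and 0 at an unadjusted p under 0.05; 0 of 4 by DESeq2), where 6.63% of genes were, or 1547 rather than 1024 genes with the title number as a block. The interval of the difference for Neurog2, the best measured, ran from -0.95 to 0.38 (log2, nominal 95%). It was made from the SE by a normal approximation and may be too narrow for so few embryos. At E9.5 the RPKM order in controls was Neurog2 (9.01 to 11.7), Neurog1 (7.44 to 9.36), Neurod1 (2.84 to 4.72), Neurod4 (1.80 to 2.20) and Atoh1 (1.00 to 1.69), with overlap only between Neurog2 and Neurog1. In KI embryos it was Neurog2 (3.83 to 7.01), Neurog1 (2.15 to 2.78), Neurod1 (0.642 to 1.33), then Atoh1 (0.519 to 0.717) and Neurod4 (0.224 to 0.573), and the last 3 overlapped in part.

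In embryos the same ratios were as follows. Neurog1 RPKM was 0.636 to 0.897 times that of Neurog2 in E9.5 controls and 0.307 to 0.727 times in KI, with overlap (exact 2-sided permutation p = 0.2, smallest possible 0.1). Neurod1 stood at 0.316 to 0.404 of Neurog2 in controls and 0.133 to 0.216 in KI, without overlap (exact 2-sided permutation p = 0.1, the smallest that 3 against 3 embryos allow). The ratio of Neurod1 to Neurog2 was thus lower in KI in day 8 cultures and in E9.5 embryos. In day 16 cultures it was higher, at 0.477 to 0.66 in flox and 3.05 to 5.51 in KI, and so was that of Neurog1 to Neurog2, at 0.357 to 0.387 in flox and 0.761 to 1.86 in KI (exact 2-sided permutation p = 0.333 for each, the smallest possible). The day 16 KI ratios rest on 5 and 7 reads of Neurog2, and none of these designs can pass 0.05.

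The lists around the proneural genes are read against the 29.5% of all genes called at E9.5. Of the 3 E proteins only Tcf3 was called, 504 ± 53 CPM in controls and 430 ± 6.5 CPM in KI (SD, n = 3 each, as below; -0.23, edgeR adjusted p = 0.0133), and of the 4 ID genes only Id2 rose (0.60, edgeR adjusted p = 1.61e-05). Of the 7 HES and HEY genes 2 rose and 2 fell. Hes1 rose from 55.8 ± 2.2 to 82.0 ± 14.1 CPM (0.55, edgeR adjusted p = 0.000414) and Hey2 by 0.66, while Hes5 fell from 72.9 ± 18.6 to 30.5 ± 3.1 CPM (-1.26, edgeR adjusted p = 3.33e-05) and Heyl fell by 2.10. Hes1 higher and Hes5 and Heyl lower in KI were called in day 8 cultures as well as in E9.5 embryos.

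Of the 19 proneural targets 14 fell and 1 rose at E9.5 (median -0.84, all genes 0.010). Myt1, a zinc finger gene of early neurons, fell from 7.27 ± 3.55 to 0.641 ± 0.055 CPM (-3.49, edgeR adjusted p = 0.000297), and its relative St18 fell from 4.59 ± 0.71 to 0.500 ± 0.142 CPM (-3.19, edgeR adjusted p = 9.09e-05). Dll1 fell by 1.08 and Dll3 fell by 1.86. The gene that rose was Dll4, from 10.3 ± 1.8 to 19.9 ± 3.0 CPM (0.95, edgeR adjusted p = 0.000309), a Notch ligand gene also expressed by blood vessels. Of 12 other neural bHLH genes 10 were tested and 6 fell (median -1.32), with Nhlh2 going from 10.1 ± 2.1 to 1.53 ± 0.36 CPM (-2.72, edgeR adjusted p = 1.94e-05) and Bhlhe23 from 2.47 ± 1.06 to 0.263 ± 0.265 CPM (-3.23, edgeR adjusted p = 0.00227).

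At E8.5, where 5.46% of all genes tested were called, 3 of the 19 targets fell and 1 rose (5 and 2 by DESeq2), with Insm1 from 2.46 ± 1.14 to 0.507 ± 0.139 CPM (-2.24, edgeR adjusted p = 0.00278) and Elavl4, which fell by 1.00. Of 10 other neural bHLH genes tested 3 fell, among them Nhlh1 from 0.515 ± 0.166 to 0.029 ± 0.051 CPM (-3.86, edgeR adjusted p = 0.0031) and Olig2 (-0.76, edgeR adjusted p = 0.031). Hey1 and Hes1 rose by 0.62 and 0.40, Tcf12 fell by 0.28, and 0 of the 4 ID genes were called by edgeR (3 had an unadjusted p under 0.05; DESeq2 called 0).

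Cell type markers moved with the embryos' values too. The 10 neuron markers summed to 203 to 300.5 CPM in E9.5 controls and 56.3 to 62.9 CPM in KI, 8 of 10 falling. At E8.5 the sums were 58.1 to 66.2 and 53.2 to 62.9 CPM, and 2 of 10 fell, Map2 by 1.09 (edgeR adjusted p = 0.00224) and Elavl4 by 1.00 (edgeR adjusted p = 0.0304). Of the 4 Atoh1-lineage markers 1 fell at E8.5, Barhl2 by 1.71 (edgeR adjusted p = 0.0159; DESeq2 called 2). Of the 8 progenitor markers 6 fell at E9.5 (1453 to 1785 against 1264 to 1343 CPM). At E9.5 the 4 Atoh1-lineage markers all fell (68.6 to 79.9 against 28.7 to 36.1 CPM), whereas all 5 heart markers rose (194 to 241 against 425 to 815 CPM) and 4 of 7 extraembryonic endoderm markers rose (83.8 to 90.1 against 232 to 332 CPM). Of the 5 trophoblast markers 3 rose at E9.5 (146 to 318 against 436 to 469 CPM). Of the 4 blood markers 1 was called at E9.5, lower (2535 to 6808 against 424 to 2228 CPM), while DESeq2 called 4 of 4 lower and 4 had an unadjusted p under 0.05. At E8.5 0 of 4 blood markers were called by edgeR (3 by DESeq2, 4 with an unadjusted p under 0.05), although their sums did not overlap (414 to 906 against 61.9 to 126 CPM). At that stage 3 of 7 extraembryonic endoderm markers rose, with overlapping sums (162 to 404 against 181 to 422 CPM). The part of embryo stage and of tissue make-up in the members' changes was not tested.

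Outside the neural cultures and embryos, Neurod1, which also acts in pancreatic endocrine cells, had reads in every ESC, EB, trophectoderm and extraembryonic endoderm library. In ESCs it had 11 reads in flox (0.582 CPM) and 90 and 83 reads in KI (3.82 and 3.49 CPM). In EBs it had 1.28 CPM in flox and 2.97 and 4.21 CPM in KI at day 4, and 0.194 CPM in flox (5 reads) and 1.48 and 2.04 CPM in KI at day 10. Each KI library was thus above the flox library of its day. Relative to that flox library the ratio ran from 2.33 (exact 95% interval 1.45 to 3.85, counting error only) in clone 27 at day 4 to 10.5 (4.22 to 33.8) in clone 48 at day 10.

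Over the 3 days Neurod1 rose by 2.27 in KI (SE 0.37, edgeR adjusted p = 0.0437), 1 of 2 members tested in a course in which 0.73% of genes were called. The 2 KI clones were each sampled on all 3 days, so the 9 libraries are not independent and the p-value may be too small. Flox has 1 library per day, and the call was lost without the ESC flox library or any one of the 6 KI libraries (edgeR adjusted p = 0.0692 to 0.139; log2 2.11 to 2.45). Neurog1 had 17 reads in flox at day 10 and 0 in both KI clones, but 1 in flox and 9 and 8 in KI at day 4, and was not called over the course. Markers of other cells also differed between these EBs. Heart markers summed to 1529 CPM in day 10 flox and 136 to 201 CPM in day 10 KI. At day 4 trophoblast markers summed to 1883 CPM in flox and 452 to 567 CPM in KI, and pluripotent cell markers to 671 and 1204 to 1268 CPM. The part of these cell types in the members' values was not tested. The 6 pancreatic endocrine markers summed to at most 1.25 CPM in any ESC or EB library. Ins1, Ins2 and Pax4 were at or under 3 reads in all of them, while Pdx1 passed 3 reads in at least 1 EB library of day 4 flox, day 10 flox and day 10 KI, Neurog3 in day 4 flox and KI, and Gcg in day 10 KI.

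In extraembryonic endoderm cultures Neurod1 had 2.81 and 3.32 CPM in flox and 5.96 and 7.32 CPM in KI, without overlap. The log2 difference of 1.08 (SE 0.46) was not called (edgeR adjusted p = 0.0872, unadjusted p = 0.0358, DESeq2 adjusted p = 0.0863). Thus 0 of 1 member tested was called, at a background of 35.5%. It was called in a fit of these 4 libraries alone (edgeR adjusted p = 0.00571) and without trophectoderm flox replicate 1 or 2 in the shared fit (0.0215 and 0.0231). Extraembryonic endoderm markers summed to 974 to 977 CPM in these flox cultures and 115 to 129 CPM in KI, and the part of that difference in the Neurod1 values was not tested. In trophectoderm cultures trophoblast markers summed to 2910 to 2981 CPM in flox and 4923 to 5054 CPM in KI. Pluripotent cell markers summed to 669 to 680 and 229 to 314 CPM, and neuron markers to 108 to 114 and 24.7 to 27.2 CPM. The part of these cell types in the members' values was not tested. Neurod1 in these cultures had 0.247 and 1.34 CPM in flox and 0.872 and 1.60 CPM in KI, with overlap (0.64, SE 0.56, edgeR adjusted p = 0.367). Without flox replicate 2 that difference was 2.29 (edgeR adjusted p = 0.0129), and without flox replicate 1 it was -0.12. Neurog1 there had 18 and 26 reads in flox and 0 and 8 in KI (-2.51, SE 1.05, edgeR adjusted p = 0.0621), so that 0 of 2 members tested were called by edgeR or DESeq2, at a background of 50.9% (1 of 2 had an unadjusted p under 0.05). Neurog1 was called in a fit of the trophectoderm libraries alone (edgeR adjusted p = 0.0319) and without KI clone 48 (0.0141), which leaves 0 reads in KI. Neurod1 was thus called higher in KI over the ESC and EB course and lower in day 8 neural cultures and E9.5 embryos, and it was not called in either extraembryonic culture. Whether these effects differ was not tested across the separate fits.

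**Figure D5:**
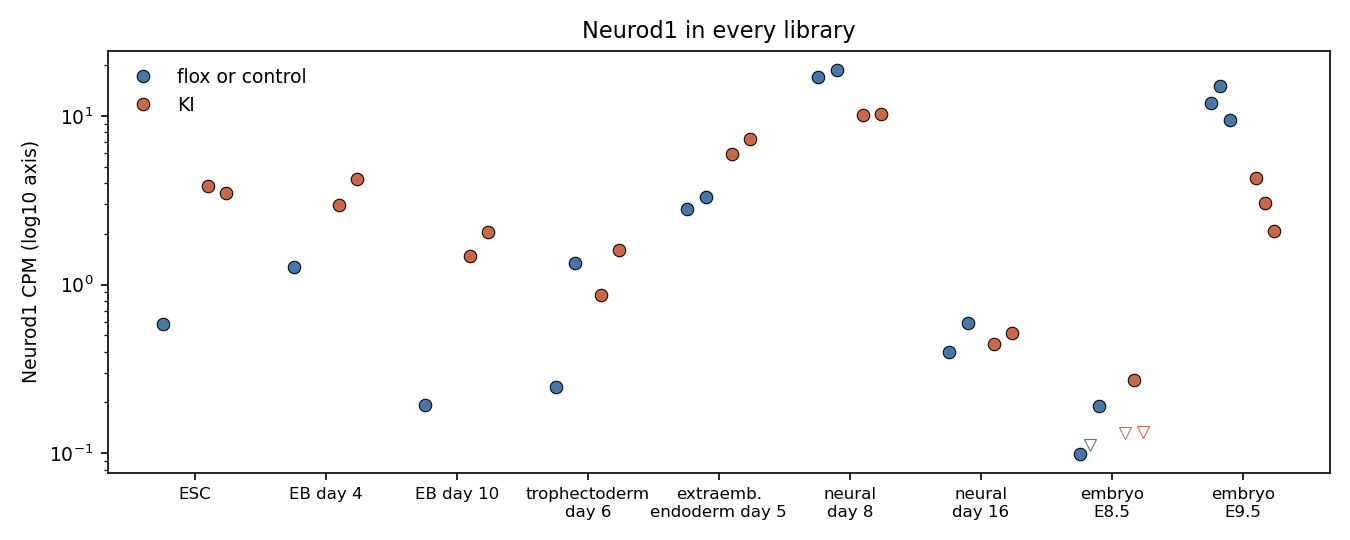
Neurod1 CPM (log10 axis) in all 37 libraries, flox or control in blue and KI in orange; open triangles mark 0 reads and are drawn at the level of 3 reads. Within each stage KI points lie above flox in ESCs, EBs and extraembryonic endoderm (1.48 to 7.32 against 0.194 to 3.32 CPM) and below the reference in neural day 8 and E9.5 embryos.

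Across the 18 group means, the genes whose log2 CPM followed each member most closely were named by rank alone, among 16070 genes with at least 1 CPM in 2 or more groups. Groups of 1 stage share a protocol and an RNA label, so these values are descriptions. Neurog1 went with Prdm12 (Pearson r = 0.971), Neurod4 (0.957) and Mir219a-2 (0.955). Neurog2 went with Olig3 (0.984), Pax7 (0.981) and Prdm12 (0.952), and Neurod4 with Nhlh1 (0.985), Prdm12 (0.971) and Neurog1 (0.957). Prdm12, a factor of sensory neurons and spinal progenitors, thus stood in the top 3 of 3 members.

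The remaining members had other companions. Neurod6 went with Oprm1 (0.999), Htr2c (0.997) and Cntnap5c (0.997), and Atoh1 with Ccdc182 (0.952), Rspo4 (0.922) and Redrum (0.921). Neurod2, which did not itself reach 1 CPM in 2 groups, went with Skap1 (0.882), Wfikkn2 (0.875) and St8sia5 (0.853). The closest to Neurod1 were Gsx2 (0.741), Hnrnpul1 (0.731) and Cep290 (0.716), the lowest top values of the 7. Among the members themselves r was 0.957 between Neurog1 and Neurod4, 0.923 between Neurog1 and Neurog2, 0.735 between Neurod2 and Neurod6, and, the lowest, -0.31 between Neurod1 and Neurod6.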

How the data were processed

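Messenger RNA was sequenced as poly(A)-selected libraries, per the labels' protocols. The authors deposited 1 table per library with read counts and RPKM values for 29082 transcripts, per the file headers. The submitters' processing notes name bcl2fastq, Bowtie2, STAR, SICER 1.1 and the build mm9 without roles. Which program counted the reads, on which annotation and with which strand setting is not given in the sources used here. The other 63 of 100 samples were not analysed here.

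The deposited counts were reduced to the transcript with most reads per gene over all libraries (28436 of 29082 accessions matched a symbol), which kept a median of 71.8% of reads. Counts were tested with edgeR 4.0.16 in R 4.3.3 (filterByExpr with a minimum count of 10, TMM scaling, robust quasi-likelihood fit), with Benjamini-Hochberg adjustment over all genes of a comparison. The 8 neural, 12 embryo, 8 extraembryonic and 9 ESC and EB libraries were fitted separately, the last with day as a factor. A member was tested where at least 1 of the groups compared averaged over 3 reads. The SE of a log2 difference is its absolute value over the square root of the F statistic of its edgeR test. CPM values are unscaled by TMM. The deposited RPKM values were used only to set levels of different genes side by side. Alternatives were DESeq2 1.42.0, no TMM factors, no filter, the sum over transcripts, only the 2 groups compared, a replicate block and leaving out each library in turn. In a leave-one-out fit that left 1 library in a group, that library was assumed to vary like the other groups.

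KI clones 27 and 48 pair the neural days by label (correlation of deviations 0.283). At E8.5 the title number paired all 3 embryo pairs (0.181 to 0.399), whose origin the labels do not give. Control and KI embryos of different numbers gave -0.317 to -0.01 at that stage. At E9.5 control and KI embryos sharing a number gave lower values (-0.004 to 0.216). These still lay above those of different numbers (-0.21 to -0.057).

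The members, gene lists and tests were chosen with earlier results of these data known. Named genes were all 7 members everywhere, up to 2 called genes per list and direction with the largest change in the 4 KI comparisons of neural cultures and embryos, and the 3 genes nearest each member in r of log2(CPM + 0.5). Listed genes outside that rule (Tcf4, Dll1, Dll3, Olig2 at E8.5, and members of a list given whole) were named after their values were seen, and 1 gene that the rule names is not reported here. Promoter windows are from RefSeq (GRCm38.p6).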

Additional observations from a re-analysis of the deposited data

Results flagged for a closer look

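The KI effect differed between neural days 8 and 16 by the test of the difference itself (edgeR, adjusted p under 0.05) for 4 members. The difference was -3.21 for Neurog2, whose KI libraries were above flox at day 8 in 2 of 2 clones and below it at day 16 in 2 of 2. It was -4.70 for Neurod2, with the same turn from above to below flox in 2 of 2 clones. It was -1.73 for Neurod4, with log2 differences of -0.31 (not called) at day 8 and -2.04 at day 16. For Neurod1 it was 0.98, and 6 of 13 alternatives ended that call.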

How the results depend on the processing

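Of the members' fold changes recomputed under an alternative, 846 kept their direction and side of the threshold, 39 lost a call, 8 gained one and 10 changed sign, none of these 10 called. The number of members called at E8.5 was 0 without the low-count filter, 0 in a fit of the 2 groups alone, and 0 to 1 with an embryo left out. With only the 2 groups compared it was 1 for trophectoderm and 1 for extraembryonic endoderm, and with a library left out it was 0 to 1 for each, as for the EB course.

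The sign changes came from leaving out 1 library, and are given with the range over all such fits. Neurod1 at neural day 16 went to -0.0877 without flox replicate 1 (range to 0.483), and Atoh1 between days in flox to 0.319 without day 8 flox replicate 1 (from -1.055). At E8.5 Atoh1 went to 0.242 without KI replicate 1 (from -1.491), and Neurod4 to 0.166 and 0.144 without KI replicates 1 and 2 and to 1.04 without control replicate 3 (from -5.55). The difference between stages went to 0.460 for Atoh1 (from -1.273) and 3.27 for Neurod4 (from -3.322) without E8.5 KI replicate 3, and to -0.398 for Neurog1 without E8.5 control replicate 3 (to 0.964). Trophectoderm Neurod1 went to -0.119 without flox replicate 1 (to 2.29). The cause was not tested.

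With the replicate block, counts over all genes rose by more than 1.5 times at E8.5 and for the difference between embryo stages, as given above. They also moved by more than 1.5 times in these cases. At neural day 8 they went from 3202 to 1950, 1896 and 2111 without flox 1, flox 2 and KI 48, and for the difference between days from 5450 to 3621 without day 8 flox 2. At E8.5 they went from 843 to 546, 377, 488 and 363 without KI 1, KI 3, control 1 and control 3, and for the difference between stages from 1024 to 654 without E8.5 control 3 and 607 without E9.5 KI 2. In extraembryonic endoderm they went from 5520 to 3641 and 3651 without flox 1 and 2. In the EB course they went from 121 to 778 under DESeq2, to 274 to 332 without a flox library, and to 26 to 79 without a KI library.

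The replicate block, which pairs embryos by title number and neural days by line, changed no member's call, with Neurog1 at -2.16 at E8.5 and -1.74 at E9.5. Depth limits Atoh1 in neural cultures (2 to 14 reads per library), Neurod2 in day 8 flox (3 and 4), and Neurod1 (0 to 6), Neurod4 (0 to 12) and Atoh1 (0 to 10) at E8.5.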
